A study of Mus musculus with 5 samples.

Results

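Serine synthesis and folate one-carbon metabolism were followed through 10 enzyme genes, *Phgdh*, *Psat1*, *Psph*, *Shmt1*, *Shmt2*, *Gldc*, *Mthfd1*, *Mthfd2*, *Mthfd1l* and *Aldh1l1*, out of 23234 genes in the authors' deposited table. The genes were chosen by function, with the deposited expression values of the same comparison known, so the differences between groups are given as a description and not as a test. All 10 had a row in the table and 9 carried a test by the authors. *Mthfd1l* had too little expression for one.

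The cells came from the cortex of CD1 mouse embryos that had been electroporated in utero at E12.5 and were collected at E15.5. In 3 samples the construct expressed GFP and Ptf1a, a transcription factor of the basic helix-loop-helix class needed for inhibitory neurons in other parts of the nervous system. In 2 control samples it expressed GFP only. Each sample was a pool of 3 to 6 brains, and fluorescent cells, labelled as pyramidal cells, were isolated by sorting before RNA was amplified. Neither the promoter of the construct nor whether pools came from separate litters is given in the sources used here.

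Cells build serine from the glycolytic intermediate phosphoglycerate in a pathway of 3 enzymes. Phgdh oxidises it in the first and committed step, Psat1 transfers an amino group from glutamate, and Psph removes the phosphate. Serine hydroxymethyltransferases then split serine into glycine and a one-carbon unit carried by tetrahydrofolate, which feeds purine, thymidylate and methionine synthesis. Most steps have a cytosolic and a mitochondrial form. In the developing and adult brain Phgdh and Aldh1l1 are known as enzymes of radial glia, the neural stem cells of the cortex, and of astrocytes.

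Expression is given in FPKM, a fragment count scaled to transcript length and sequencing depth, with 1 value per group that the authors computed from its samples. No values per sample were analysed here, so the spread within a group, the depth per sample and the overlap of the groups are unknown. The error given for a log2 fold is the deposited log2 fold divided by the deposited test statistic, an implied standard error. The words rose and fell are kept for genes with a deposited q under 0.05. Of 11876 genes tested, 18.7% rose and 19.1% fell with Ptf1a. *Ptf1a* itself stood at 38.9 FPKM in the Ptf1a samples, against 0.210 FPKM in the GFP-only samples. Reads from the construct's coding sequence and from the endogenous gene cannot be told apart.

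Of the 9 tested enzymes 7 rose and 0 fell, beside the 18.7% of all tested genes that rose. Their median log2 difference, on the log2(FPKM + 0.1) scale used for all medians, was 0.70, and that of all tested genes was -0.01. Summed over the 10 genes, the level was 425 FPKM in the Ptf1a samples and 201 FPKM in the GFP-only samples. *Phgdh* made up 54.5% of the sum in the Ptf1a samples and 24.9% in the GFP-only samples. Without *Phgdh* the sums were 194 FPKM in the Ptf1a samples and 151 FPKM in the GFP-only samples. Most of the gain in summed level was therefore the gain of a single gene.

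**Figure D1:**
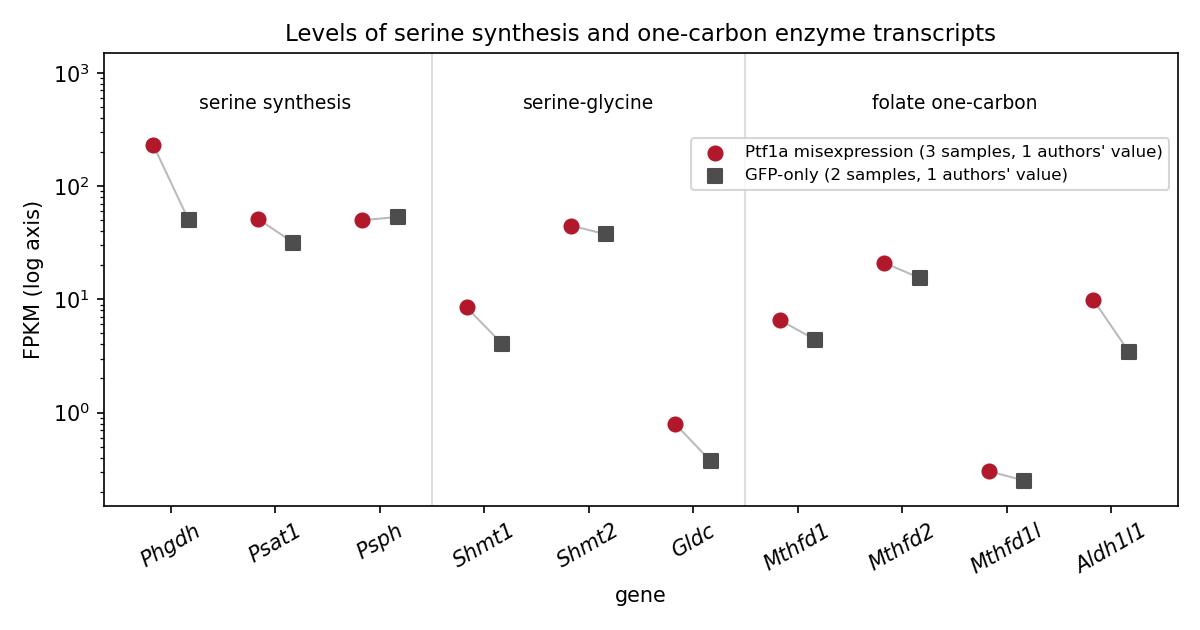
FPKM (log axis) of the 10 enzyme transcripts, ordered by role, with the authors' single value for Ptf1a misexpression (red circles, left of each pair) and for GFP-only (grey squares, right of each pair). *Phgdh* stands at 232 FPKM in the Ptf1a samples and 50.0 FPKM in the GFP-only samples, while *Psph* has nearly level points at 50.0 and 53.4 FPKM.

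The 3 steps of serine synthesis differed in size of change. *Phgdh* (chromosome 3, 98117094 to 98143892, mm9) had 232 FPKM in the Ptf1a samples, against 50.0 FPKM in the GFP-only samples, a deposited log2 fold of 2.21 (implied standard error 0.22) with q = 0.000329 in the authors' deposited table. That q is the smallest in the table and is shared by all 1803 genes at the smallest deposited p. *Phgdh* held rank 578 of all genes by level in the Ptf1a samples and rank 1897 in the GFP-only samples. By log2 difference it was number 197 among the tested genes.

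*Psat1* (chromosome 19, 15979613 to 15999549, mm9), which makes phosphoserine, stood at 51.8 FPKM in the Ptf1a samples and 31.7 FPKM in the GFP-only samples, a log2 fold of 0.71 (implied standard error 0.26) with q = 0.000329 in the authors' deposited table. *Psph* (chromosome 5, 130271434 to 130293129, mm9), which releases free serine, stood at 50.0 FPKM in the Ptf1a samples and 53.4 FPKM in the GFP-only samples and was not called. Its log2 fold of -0.09 had a 95% interval of -0.55 to 0.36 from the implied standard error. The deposited log2 fold was thus smaller at each step of the pathway, from the first enzyme to the last. The ratio of *Phgdh* to *Psph*, compared per length as FPKM, was 4.63 in the Ptf1a samples and 0.937 in the GFP-only samples. That of *Psat1* to *Psph* was 1.03 in the Ptf1a samples and 0.594 in the GFP-only samples. The transcripts of the pathway, which lay within a narrow range of levels in the control, were led by the first step in the Ptf1a samples. A pseudogene, *Phgdh-ps1*, is recorded in RefSeq and has no row in the table, and whether its reads were counted with *Phgdh* was not tested.

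The upstream sequences of the 2 serine synthesis genes that rose are shown. They were read from RefSeq promoter windows (GRCm38.p6, 250 bases before the start, minus strand for both genes, 5′ to 3′), leaving out bases in annotated exons. All 10 genes were matched in these windows. The *Phgdh* stretch is chr3:98339991-98340219 and the *Psat1* stretch chr19:15925060-15925309. Capitals mark matches on either strand to any of 4 motifs, which were chosen after promoters had been looked at: the CCAAT box (CCAAT), the E-box that basic helix-loop-helix factors bind (CANNTG), the core motif of Rbpj, a partner of Ptf1a (TGGGAA), and the composite element of Atf4 with C/EBP factors (TGATGNAA).
Phgdh: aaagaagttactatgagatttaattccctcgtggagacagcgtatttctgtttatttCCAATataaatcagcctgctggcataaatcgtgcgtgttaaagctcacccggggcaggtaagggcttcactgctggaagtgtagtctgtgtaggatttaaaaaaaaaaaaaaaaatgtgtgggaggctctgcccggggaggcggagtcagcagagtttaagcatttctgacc
Psat1: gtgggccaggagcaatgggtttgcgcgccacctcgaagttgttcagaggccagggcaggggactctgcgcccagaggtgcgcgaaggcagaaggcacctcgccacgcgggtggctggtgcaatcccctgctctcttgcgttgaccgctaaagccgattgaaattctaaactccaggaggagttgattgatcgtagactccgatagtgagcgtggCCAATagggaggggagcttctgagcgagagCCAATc
The capitals in both stretches are CCAAT boxes. *Phgdh* has them 193 and 23 bases before its start, the second reaching into an annotated exon and not printed. *Psat1* has them 36 and 6 bases before its start, and a second *Psat1* start in the same table has none. A CCAAT box was found in the 250 bases of 8 of the 10 enzymes, *Psph* included, and in 41.6% of 8450 tested genes with a window. An E-box was found in 3 of the 10 and in 60.9% of those genes, and the Rbpj core in 4 of the 10 and in 23.8%. A match of letters is a description of the window and not evidence of binding.

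Among the enzymes that join serine to glycine and folate, the cytosolic *Shmt1* rose and the mitochondrial *Shmt2* was not called. *Shmt1* (chromosome 11, 60602399 to 60624767, mm9), the cytosolic serine hydroxymethyltransferase, had 8.50 FPKM in the Ptf1a samples, against 4.05 FPKM in the GFP-only samples, a log2 fold of 1.07 (implied standard error 0.36) with q = 0.000329 in the authors' deposited table. *Shmt2* (chromosome 10, 126951995 to 126959500, mm9), its mitochondrial counterpart, had 44.9 FPKM in the Ptf1a samples and 37.4 FPKM in the GFP-only samples. Its log2 fold of 0.26 missed the threshold (q = 0.0642 in the authors' deposited table), with a 95% interval of -0.23 to 0.75. *Shmt2* stayed the more abundant form in both groups. *Shmt1* was 15.9% of their summed level in the Ptf1a samples and 9.77% in the GFP-only samples. The difference between the changes of these paralogs was not tested. The locus given for *Shmt2* is shared with *Ndufa4l2*, listed at 1.65 FPKM in the Ptf1a samples and 1.74 FPKM in the GFP-only samples.

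*Gldc* (chromosome 19, 30172937 to 30249908, mm9), the decarboxylase that opens the mitochondrial glycine cleavage system, was weak in both groups. It had 0.789 FPKM in the Ptf1a samples and 0.371 FPKM in the GFP-only samples, a log2 fold of 1.09 with an implied standard error of 0.69 and q = 0.0105 in the authors' deposited table. Its 95% interval, -0.27 to 2.44, covers both signs. Of its partners, *Gcsh* and *Dld* were more abundant as transcripts and were not called. *Gcsh*, the lipoyl carrier, stood at 59.7 FPKM in the Ptf1a samples and 62.8 FPKM in the GFP-only samples. *Dld*, which other dehydrogenase complexes also use, stood at 43.6 FPKM in the Ptf1a samples and 38.8 FPKM in the GFP-only samples. *Amt*, the aminomethyltransferase, had no test, with 0.290 FPKM in the Ptf1a samples and 0.126 FPKM in the GFP-only samples. The level of *Gldc* was 0.0132 of that of *Gcsh* in the Ptf1a samples and 0.00591 of it in the GFP-only samples, so 2 of the 4 components stayed below 1 FPKM in both groups.

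The 3 tested folate enzymes that convert the one-carbon unit rose, by unequal amounts. *Aldh1l1* (chromosome 6, 90500842 to 90549165, mm9), the cytosolic formyl-tetrahydrofolate dehydrogenase and a widely used astrocyte marker, had 9.93 FPKM in the Ptf1a samples, against 3.46 FPKM in the GFP-only samples. Its log2 fold was 1.52 (implied standard error 0.34) with q = 0.000329 in the authors' deposited table. *Mthfd1* (chromosome 12, 77356219 to 77420807, mm9), the cytosolic enzyme with 3 activities in folate interconversion, had 6.56 FPKM in the Ptf1a samples and 4.40 FPKM in the GFP-only samples, a log2 fold of 0.57 (implied standard error 0.34) with q = 0.00161 in the authors' deposited table. *Mthfd2* (chromosome 6, 83255698 to 83267598, mm9), a mitochondrial dehydrogenase and cyclohydrolase best known from embryonic and tumour cells, had 21.0 FPKM in the Ptf1a samples and 15.4 FPKM in the GFP-only samples. Its log2 fold of 0.44 (implied standard error 0.28) had q = 0.00483 in the authors' deposited table. The 95% intervals of *Mthfd1* and *Mthfd2*, -0.08 to 1.23 and -0.10 to 0.98, cover both signs. *Mthfd1l* (chromosome 10, 6179460 to 6373466, mm9), which releases formate from mitochondria, stood at 0.303 FPKM in the Ptf1a samples and 0.251 FPKM in the GFP-only samples without a test.

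The isozymes of these enzymes were not called. *Aldh1l2*, the mitochondrial form of *Aldh1l1*, stood at 1.09 FPKM in the Ptf1a samples and 1.15 FPKM in the GFP-only samples, so the ratio of *Aldh1l1* to *Aldh1l2* was 9.12 in the Ptf1a samples and 3.02 in the GFP-only samples. *Mthfd2l*, which shares its reactions with *Mthfd2*, stood at 1.93 FPKM in the Ptf1a samples and 1.76 FPKM in the GFP-only samples. Their 95% intervals, -0.94 to 0.80 and -0.86 to 1.12 on the log2 scale, span changes of the size seen in *Mthfd1* and *Mthfd2*. The stretch upstream of *Aldh1l1* (chr6:90550543-90550788, plus strand, GRCm38.p6, from the RefSeq windows) is shown as that of the enzyme with the second largest fold.
Aldh1l1: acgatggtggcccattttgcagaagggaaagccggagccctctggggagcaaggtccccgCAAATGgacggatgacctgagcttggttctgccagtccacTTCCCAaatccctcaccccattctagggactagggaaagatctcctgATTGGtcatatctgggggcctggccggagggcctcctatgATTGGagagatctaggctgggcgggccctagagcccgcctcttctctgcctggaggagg
Its capitals are, from the 5′ end, an E-box, an Rbpj core on the opposite strand and a pair of CCAAT boxes on the opposite strand, beginning 190, 150, 103 and 63 bases before the start.

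**Figure D2:**
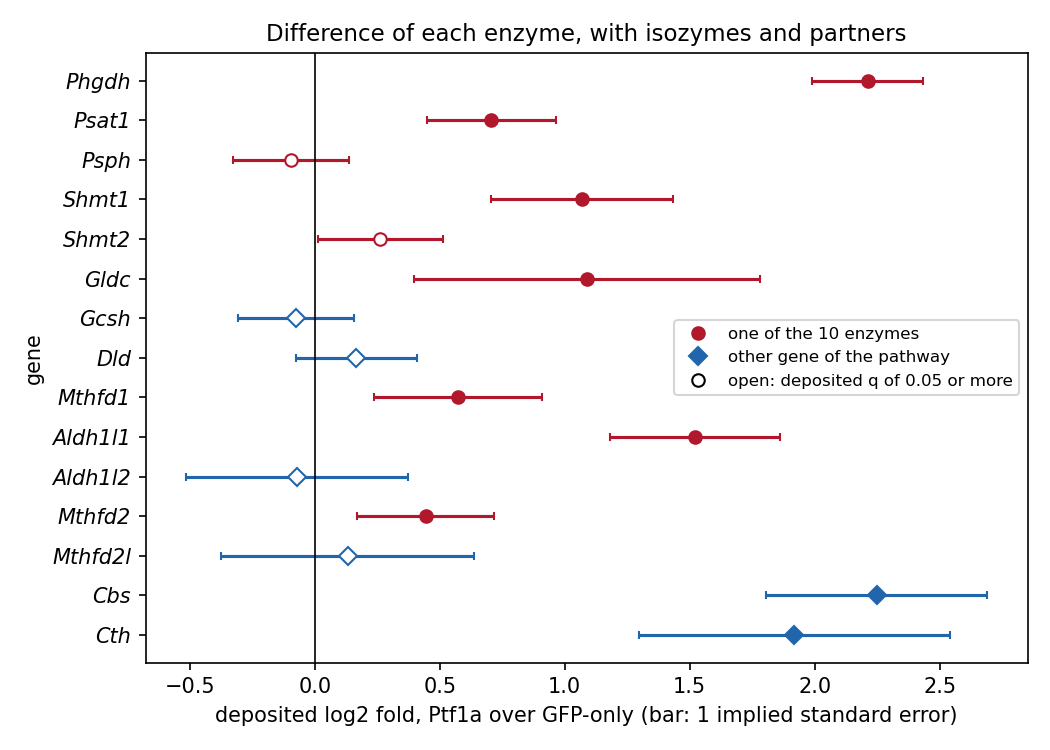
Deposited log2 fold, Ptf1a over GFP-only, of the 9 tested enzymes (red circles) and of isozymes, glycine cleavage partners and transsulfuration enzymes (blue diamonds), with bars of 1 implied standard error and open symbols where the deposited q was 0.05 or more. *Phgdh* at 2.21 and *Cbs* at 2.25 lie farthest right, and *Psph*, *Gcsh*, *Dld*, *Aldh1l2* and *Mthfd2l* lie near 0.

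The count of risen enzymes depended on the rule for a call. At q under 0.01, 6 of 9 rose, without *Gldc*, beside 12.9% of all tested genes that rose and 12.9% that fell. With a minimum of 1 FPKM in 1 of the groups, 6 of the tested enzymes rose, again without *Gldc*, beside 17.9% that rose and 21.1% that fell. *Phgdh*, *Aldh1l1* and *Shmt1* were the 3 that rose by a factor of 2 or more on the log2(FPKM + 0.1) scale. Of all tested genes 6.67% rose and 1.87% fell by as much with q under 0.05. The deposited p-values were smaller than a normal distribution gives for the deposited test statistic. With that normal p, adjusted by Benjamini-Hochberg over 11831 genes with a finite statistic, 3.31% rose and 2.81% fell, and 2 of the 9 enzymes rose, *Phgdh* (q = 2.95e-20) and *Aldh1l1* (q = 0.00048). *Shmt1* (q = 0.0537) and *Psat1* (q = 0.082) then missed the threshold. For *Mthfd1*, *Mthfd2* and *Gldc* that q was 0.408, 0.454 and 0.474.

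Abundant genes as a whole were lower in the Ptf1a samples, and the enzymes spanned the range of abundance. When genes were divided into 10 bins by mean expression, the lowest bin, which held *Gldc*, had a median log2 difference of 0.52, and the highest, which held *Phgdh*, had -0.32. Relative to the median of its own bin the log2 difference of *Phgdh* was 2.53 in place of 2.21, that of *Psat1* 0.86 in place of 0.70, and that of *Shmt2* 0.41 in place of 0.26. *Gldc* moved the other way, to 0.40 in place of 0.92. *Psph* had 0.06 in place of -0.09, so it lay close to the other genes of its abundance on either scale.

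**Figure D3:**
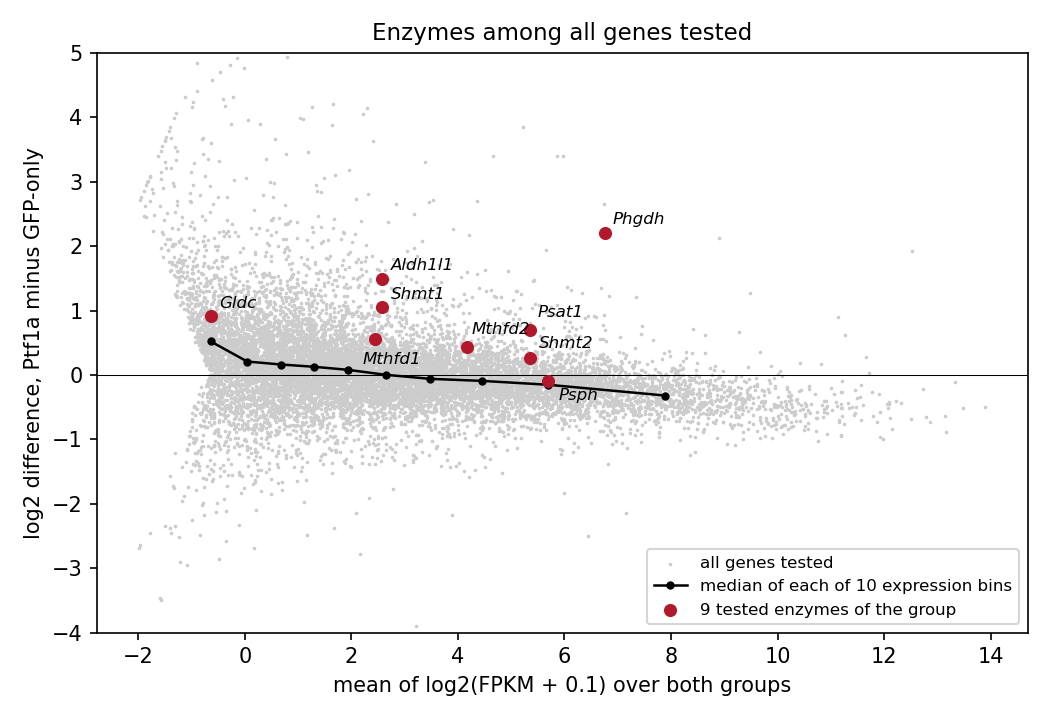
Log2 difference (Ptf1a minus GFP-only, log2(FPKM + 0.1)) against mean log2 expression for all tested genes (grey, 47 beyond the drawn range), the medians of 10 expression bins (black line) and the 9 tested enzymes (red). The black line slopes from 0.52 to -0.32, and *Phgdh* at 2.21 stands above nearly all genes of its abundance.

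Other genes of the folate cycle rose about as often as genes in general. Of 11 tested members of a list of 13 further folate cycle genes, 2 rose and 0 fell, beside the 18.7% and 19.1% of all tested genes, and the median log2 difference was 0.13. *Tyms*, the thymidylate synthase, rose to 27.4 FPKM in the Ptf1a samples, against 20.6 FPKM in the GFP-only samples. Among 8 tested carriers of folate and of mitochondrial serine 1 rose and 2 fell, with a median of -0.22. *Sfxn1*, a mitochondrial serine transporter, fell to 44.3 FPKM in the Ptf1a samples, against 55.2 FPKM in the GFP-only samples. *Slc25a32*, the mitochondrial folate carrier, fell to 0.598 FPKM in the Ptf1a samples, against 1.02 FPKM in the GFP-only samples. *Sfxn5*, a related sideroflexin, rose to 1.41 FPKM in the Ptf1a samples, against 0.700 FPKM in the GFP-only samples. Genes of serine and glycine transport and use had 2 risen and 0 fallen of 14 tested and a median of 0.10, in which *Slc38a1*, an amino acid transporter, had 16.0 FPKM in the Ptf1a samples, against 10.8 FPKM in the GFP-only samples. *Sptlc1*, which starts sphingolipid synthesis from serine, had 6.88 FPKM in the Ptf1a samples, against 5.14 FPKM in the GFP-only samples.

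Downstream of serine, the transsulfuration enzymes moved by about as much as *Phgdh*. This route joins serine to homocysteine and yields cysteine. *Cbs*, its first enzyme, had 8.89 FPKM in the Ptf1a samples, against 1.87 FPKM in the GFP-only samples, a log2 fold of 2.25 (implied standard error 0.44) with q = 0.000329 in the authors' deposited table. *Cth*, its second enzyme, had 3.08 FPKM in the Ptf1a samples, against 0.814 FPKM in the GFP-only samples, a log2 fold of 1.92 (implied standard error 0.62) with q = 0.000329 in the authors' deposited table. Both were also called with the normal p. In the whole methionine cycle and transsulfuration list 4 of 9 tested genes rose and 0 fell, with a median of 0.56. Of all tested genes 18.7% rose and 19.1% fell. *Gamt*, the creatine synthesis methyltransferase, had 19.0 FPKM in the Ptf1a samples, against 11.8 FPKM in the GFP-only samples, and *Ahcyl2*, a relative of the adenosylhomocysteine hydrolase, had 0.610 FPKM against 0.338 FPKM in the GFP-only samples.

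Nucleotide synthesis is the main use of one-carbon units in dividing cells. Of 12 tested purine synthesis genes 2 rose and 1 fell, with a median of 0.10, so the share that rose was near the 18.7% of all tested genes. *Paics*, in a locus shared with *Ppat*, rose to 96.8 FPKM in the Ptf1a samples, against 63.4 FPKM in the GFP-only samples, and *Adsl* to 36.8 FPKM, against 26.7 FPKM in the GFP-only samples. *Impdh1*, of the guanine branch, fell to 6.73 FPKM in the Ptf1a samples, against 9.12 FPKM in the GFP-only samples. *Gart* and *Atic*, the purine enzymes that consume the formyl group itself and were chosen after their values were seen, were not called, with 11.3 and 11.8 FPKM in the Ptf1a samples, against 9.62 and 12.4 FPKM in the GFP-only samples. Of 12 pyrimidine and deoxynucleotide genes 5 rose and 2 fell, beside 18.7% and 19.1% of all tested genes, with a median of 0.07. The risen included both subunits of the replicative ribonucleotide reductase and *Tk1*, the S-phase thymidine kinase, in a locus shared with *Afmid*. *Rrm2* had 77.2 FPKM in the Ptf1a samples, against 37.3 FPKM in the GFP-only samples, *Tk1* had 34.7 FPKM against 21.4 FPKM in the GFP-only samples, and *Rrm1* had 21.2 FPKM against 13.9 FPKM in the GFP-only samples. *Nme1*, an abundant nucleoside diphosphate kinase, fell to 723 FPKM in the Ptf1a samples, against 1046 FPKM in the GFP-only samples.

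*Phgdh*, *Psat1*, *Psph*, *Shmt2* and *Mthfd2* are known targets of Atf4, the transcription factor of the amino acid response, so *Atf4* and other targets of it were set beside them. Of 15 tested genes of that list 3 rose and 6 fell, with a median of -0.19. The share that rose was near the 18.7% of all tested genes, of which 19.1% fell. *Atf4* fell to 97.1 FPKM in the Ptf1a samples, against 132.8 FPKM in the GFP-only samples, and *Asns*, the asparagine synthetase, fell to 63.1 FPKM, against 91.4 FPKM in the GFP-only samples. Both were named after their values were seen. *Slc7a11*, which imports cystine for cysteine and glutathione, fell to 0.189 FPKM in the Ptf1a samples, against 30.0 FPKM in the GFP-only samples, so this importer was lower where both transsulfuration genes were higher. The risen were *Cebpg*, a C/EBP factor, and 2 stress response genes below 1 FPKM. *Trib3* had 0.710 FPKM in the Ptf1a samples, against 0.147 FPKM in the GFP-only samples, and *Sesn2* had 0.724 FPKM against 0.193 FPKM in the GFP-only samples. Of the 5 enzyme genes known as targets, *Phgdh*, *Psat1* and *Mthfd2* rose while *Psph* and *Shmt2* were not called.

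The composite element of Atf4 is shown in *Slc7a11* and *Asns*, 2 of the 6 fallen genes of that list, picked after their values were seen, since 0 of the 10 enzymes have it in the 250 bases before a start. It was found in 2.24% of the 8450 tested genes with a window, a share of all such genes and not of known Atf4 targets. Whether its absence from the 10 enzymes departs from either share was not tested. Whether the other genes of that list have the element is not reported here, so no link between the element and the direction of change can be read. Both stretches come from the RefSeq windows (GRCm38.p6, minus strand), chr3:50443615-50443714 for *Slc7a11* and chr6:7693215-7693244 for *Asns*.
Slc7a11: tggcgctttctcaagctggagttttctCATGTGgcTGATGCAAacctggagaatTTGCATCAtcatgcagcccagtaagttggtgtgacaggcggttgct
Asns: gtcccagcCACATGATGAAActtcccgcac
In *Slc7a11* the capitals are an E-box and then the element on each strand, TGATGCAA beginning 66 and TTGCATCA beginning 47 bases before the start. In *Asns* the element, TGATGAAA, begins 23 bases before the start and overlaps an E-box. The absence of a match in the enzymes covers only these windows, and elements elsewhere in a gene were not searched.

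**Figure D4:**
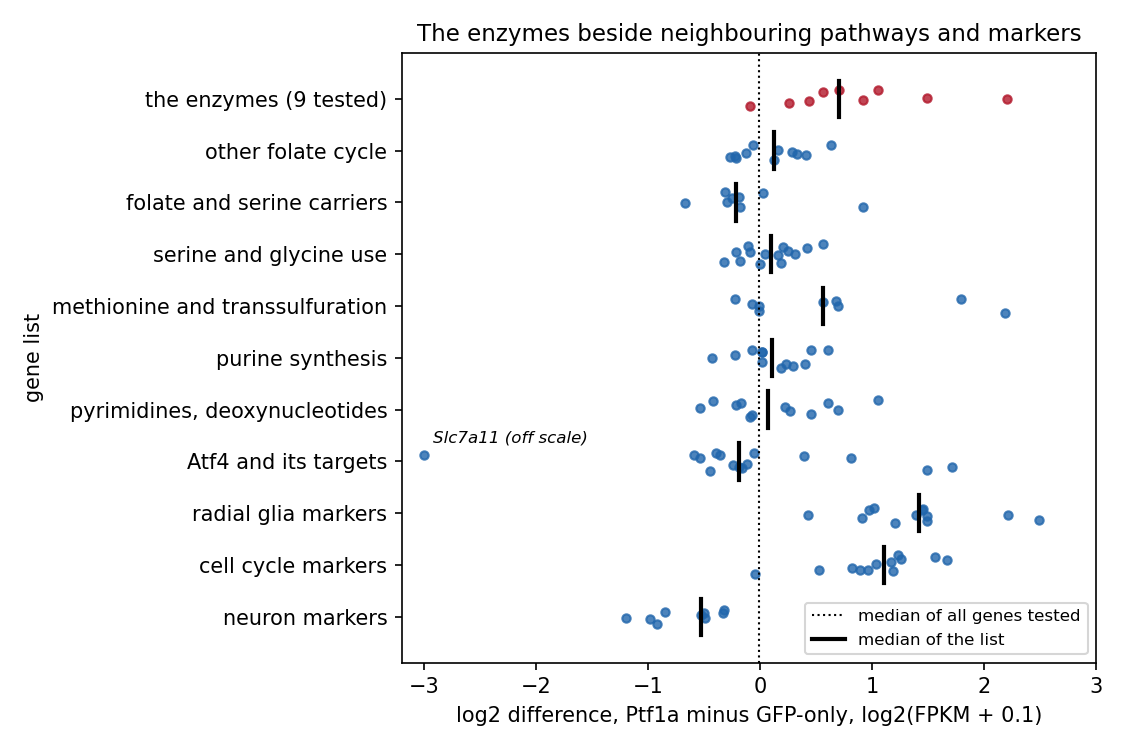
Log2 difference (Ptf1a minus GFP-only, log2(FPKM + 0.1)) of each tested gene (points) in the enzyme group, 7 neighbouring pathway lists and 3 marker lists, with the median of each list (black bar) and of all tested genes (dotted line); *Slc7a11*, at -6.70, is drawn at the left edge. The enzymes' median of 0.70 lies between the medians of the pathway lists, from -0.22 to 0.56, and those of radial glia and cell cycle markers, 1.42 and 1.10.

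Markers of cell state also differed between the groups, beside the 18.7% of all tested genes that rose and 19.1% that fell. All 12 radial glia markers on the list rose, with a median log2 difference of 1.42. Their summed level was 3490 FPKM in the Ptf1a samples and 1824 FPKM in the GFP-only samples. Most of that sum was *Fabp7*, with 3095 FPKM in the Ptf1a samples and 1652 FPKM in the GFP-only samples. *Pax6* had 21.5 FPKM in the Ptf1a samples, against 3.73 FPKM in the GFP-only samples, and *Nes* had 5.15 FPKM against 1.03 FPKM in the GFP-only samples. Of 12 cell cycle markers 11 rose, with *Pcna* at 222.7 FPKM in the Ptf1a samples and 230.4 FPKM in the GFP-only samples and not called. All 9 tested neuron markers fell, with a median of -0.53 and a summed level of 2590 FPKM in the Ptf1a samples and 4379 FPKM in the GFP-only samples. *Tubb3*, in a row marked as having too much data, was listed at 0 in the GFP-only samples and left out of the sum. Of 4 tested astrocyte markers 2 rose, *Acsbg1* and *Fgfr3*. *Slc1a2* and *Gja1* were not called, with 1.11 and 0.963 FPKM in the Ptf1a samples, against 1.04 and 0.947 FPKM in the GFP-only samples. *Gfap*, *Aqp4* and *S100b* had no test, and *Gfap* was listed at 0 in the GFP-only samples and at 0.182 FPKM in the Ptf1a samples. A change in the share of cells of a type and a change in RNA per cell cannot be told apart in bulk samples, and the part of these markers in the enzymes' differences was not tested.

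Markers of cells that a sort could carry along moved in both directions. For all tested genes the shares were 18.7% risen and 19.1% fallen. The 7 microglial markers summed to 10.1 FPKM in the Ptf1a samples and 15.7 FPKM in the GFP-only samples, with 1 fallen (*Tyrobp*) of 5 tested. The 7 endothelial and mural markers summed to 7.21 FPKM in the Ptf1a samples and 3.77 FPKM in the GFP-only samples, and *Pdgfrb* and *Rgs5*, of mural cells, rose. The 5 red blood cell markers with a row of their own summed to 62.1 FPKM in the Ptf1a samples and 149 FPKM in the GFP-only samples, and 3 fell. The 5 choroid plexus markers summed to 7.45 FPKM in the Ptf1a samples and 31.6 FPKM in the GFP-only samples, most of it *Ttr*, which fell to 6.92 FPKM in the Ptf1a samples, against 31.4 FPKM in the GFP-only samples, with *Folr1* and *Aqp1* listed at 0 in the GFP-only samples. Their part in the enzymes' differences was not tested.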

How the data were processed

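RNA of sorted cells was amplified from 2.1 to 7.8 ng with a low-input kit and sequenced as 50 bp paired ends, per the labels' protocols. Per the submitters' processing notes the authors' tools were Cuffdiff, Cufflinks 2.1.1, TopHat2 2.0.8 and CASAVA 1.8.2, and the build was mm9. The version of Cuffdiff, its settings and the annotation are not given in the sources used here. Per the file headers, the deposited table gives 1 FPKM value per group and gene, a log2 fold of the group headed PIG over the group headed GFP, a test statistic (a signed score) and a p-value and q-value. PIG was read as the Ptf1a construct, since the samples form 2 groups. The depth per sample is unknown.

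From these values log2(FPKM + 0.1) differences, implied standard errors, 95% normal intervals and 10 expression bins were computed with Python 3.11.15, pandas 2.3.3 and scipy 1.17.1. Recomputing the q-value by Benjamini-Hochberg gave the deposited q within 5.2e-07. The calculations were checked on simulated data. Locus starts were taken as 0-based and printed 1-based. So read, 7148 of 20598 loci had the span of the RefSeq gene, against 451 otherwise. Of 182 list genes 1 was matched by a synonym (*Map2*) and 2, *Hba-a1* and *Hbb-b1*, had no row of their own. Rows that name them jointly with *Hba-a2* and *Hbb-b2* were not used.

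The enzymes and lists were chosen with earlier results of these data known. The genes named are all 10 enzymes, their isozymes, the glycine cleavage partners and called list genes with the largest difference, up to 4 a list, of which most marker genes are given as counts and some genes are not reported here. Alternatives covered the q threshold, an FPKM minimum, a fold minimum, pseudocounts, centring and the normal p.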

Additional observations from a re-analysis of the deposited data

How the results depend on the processing

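The enzymes' median log2 difference of 0.70 lay between 0.48 (pseudocount 1) and 0.71 over the pseudocount, centring and FPKM alternatives. Single enzymes' differences kept their sign and moved by less than the implied standard error in 34 recomputations. Relative to its expression bin *Phgdh* moved by more, to 2.53, and *Psph* changed sign within its error, with 0.06 in place of -0.09.

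Counts of calls moved by over 1.5 times as follows. With a fold of at least 2, the risen were 3 enzymes in place of 7, 2 methionine and transsulfuration genes in place of 4, 1 pyrimidine gene in place of 5, and 0 in the other folate, carrier, serine use and purine lists. The fallen were then 1 Atf4 list gene in place of 6 and 0 carriers, purine or pyrimidine genes. With the normal p, the risen were 2 enzymes, 2 methionine and transsulfuration genes, 1 pyrimidine gene and 0 in the other folate, carrier, serine use, purine and Atf4 lists. The fallen were then 1 Atf4 list gene and 0 carriers, purine or pyrimidine genes. At q under 0.01, 1 serine use gene rose, and 0 carriers and 0 purine genes fell. With the FPKM minimum, 1 Atf4 list gene rose. The causes of these changes beyond the stricter rule were not tested.

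No paired analysis was possible because the table holds 1 value per group and no values per sample. For the same reason leaving out a replicate was not run, and whether 1 sample decides a difference is unknown. Depth is unknown, so no counting error could be computed for genes below 1 FPKM. *Gldc* has only its implied standard error of 0.69, and *Mthfd1l*, without a test, has no error beside it.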

Other observations

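Genes next to the enzymes were looked at after the values had been seen. Within 10 kb of the 10 loci lay 15 other rows of the table, of which 10 had a test. Of those 10, 3 rose, beside 18.7% of all tested genes. *Nxph4*, which encodes a neurexin ligand, lies 3028 bases from the locus of *Shmt2* (chromosome 10, 126962529 to 126971615, mm9) and had 5.50 FPKM in the Ptf1a samples, against 0.416 FPKM in the GFP-only samples, a log2 fold of 3.72 in the authors' deposited table. *Gbas*, 7232 bases from *Psph*, had 24.8 FPKM in the Ptf1a samples, against 19.6 FPKM in the GFP-only samples (q = 0.0274 in the authors' deposited table). *Cct6a*, 131 bases from *Psph*, was not called, with 326 FPKM in the Ptf1a samples and 342 FPKM in the GFP-only samples.

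*Mtr*, the methionine synthase that joins the folate and methionine cycles, had no test and stood at 0.324 FPKM in the Ptf1a samples, against 0.0310 FPKM in the GFP-only samples. Its reductase *Mtrr* was not called, with 1.56 FPKM in the Ptf1a samples and 1.22 FPKM in the GFP-only samples. Both were chosen after their values were seen.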
